A study of Mus musculus with 23 samples.

Results

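Testes of CD-1 mice taken 36.5 days after birth (dpp) were compared, over all genes, with testes taken at 6.5 dpp. The comparison used 6 of the 23 libraries of the series: the 2 fresh libraries at 36.5 dpp, and against them fresh replicate 2 and the 3 controlled slow frozen (CSF) and thawed libraries at 6.5 dpp. All 6 came from wild-type (wt) mice and from tissue that had not been cultured, and each library was made from whole testis or pooled testis fragments holding germ cells and somatic cells together. Library preparation selected polyadenylated RNA. Of the other libraries labelled 6.5 dpp, fresh replicate 3 held the same count as fresh replicate 2 for every gene and was left out as a copy, and fresh replicate 1 was left out for its expression profile. The labels number 3 CSF libraries at 6.5 dpp, whereas the design text of the series counts 2 biological replicates. The 4 libraries may therefore not all be separate biological samples. The p-values measure only the spread between libraries within groups, estimated over the 21 libraries and 7 groups of the fit, cultured explants among them.

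The 2 ages bracket the first wave of spermatogenesis in the mouse. In the first postnatal week the seminiferous cords hold Sertoli cells, which still divide, and spermatogonia. By the end of the first wave the tubules have a lumen and carry spermatocytes and spermatids, Sertoli cells have stopped dividing and have closed the blood-testis barrier, and the fetal generation of Leydig cells has given way to the adult generation that makes testosterone. Peritubular myoid cells wrap the tubules and lay down part of their basement membrane, and blood vessels and macrophages share the interstitium with the Leydig cells.

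The libraries held 33668932 and 38883013 counts at 36.5 dpp, and 47898957 (fresh replicate 2), 48084120, 41104442 and 28351546 counts (CSF replicates 1, 2 and 3) at 6.5 dpp. Across genes on a log2 scale, the libraries fresh replicate 2 and CSF replicates 1 and 2 correlated at 0.993 to 0.995 with each other, CSF replicate 3 at 0.956 to 0.970 with these, and the 36.5 dpp libraries at 0.975 with each other. Fresh replicate 1 of 6.5 dpp correlated at 0.823 to 0.865 with the other 6.5 dpp libraries, and genes are not independent replicates in any of these values. It carried 3902 normalised CPM of a 15-gene list of spermatocyte and spermatid regulators, against 177 to 284 in the other 6.5 dpp libraries. Results are therefore given without it, and counts over a list are given in brackets with it added or without CSF replicate 3 where these differ. Levels are given as normalised CPM, which is the CPM scale (counts relative to the library total) after scaling by the TMM factor of edgeR. Values at 36.5 dpp stand in the order replicates 1 and 2, and values at 6.5 dpp in the order fresh replicate 2, then CSF replicates 1, 2 and 3.

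A gene was called when its level differed at least 4-fold (a log2 fold change of 2 or more in either direction) with an adjusted p of at most 0.001 in edgeR's quasi-likelihood test, and "rose" and "fell" are used for called genes alone. Of 19255 genes tested, 7857 (40.8%) were called, 5015 of them (26.0%) higher and 2842 (14.8%) lower at 36.5 dpp. The groups did not overlap in 14306 genes (74.3%), among them all 5015 that rose and 2839 of the 2842 that fell. The called genes were uneven in kind. Long non-coding RNAs made up 22% of the genes that rose and 2.60% of those that fell, against 9.08% of all genes tested. The rises were also the larger changes, with a median log2 fold change of 5.77 against -2.79 for the falls, although 1416 of the genes that rose had at most 3 counts in every 6.5 dpp library, so that their fitted values are no bound. Both older libraries were fresh and 3 of the 4 younger ones thawed. With fresh replicate 2 as the only younger library, 3760 genes were called higher and 2625 lower, with the CSF libraries alone 4871 and 2836, and with fresh replicate 1 added 3044 and 2458.

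**Figure D1:**
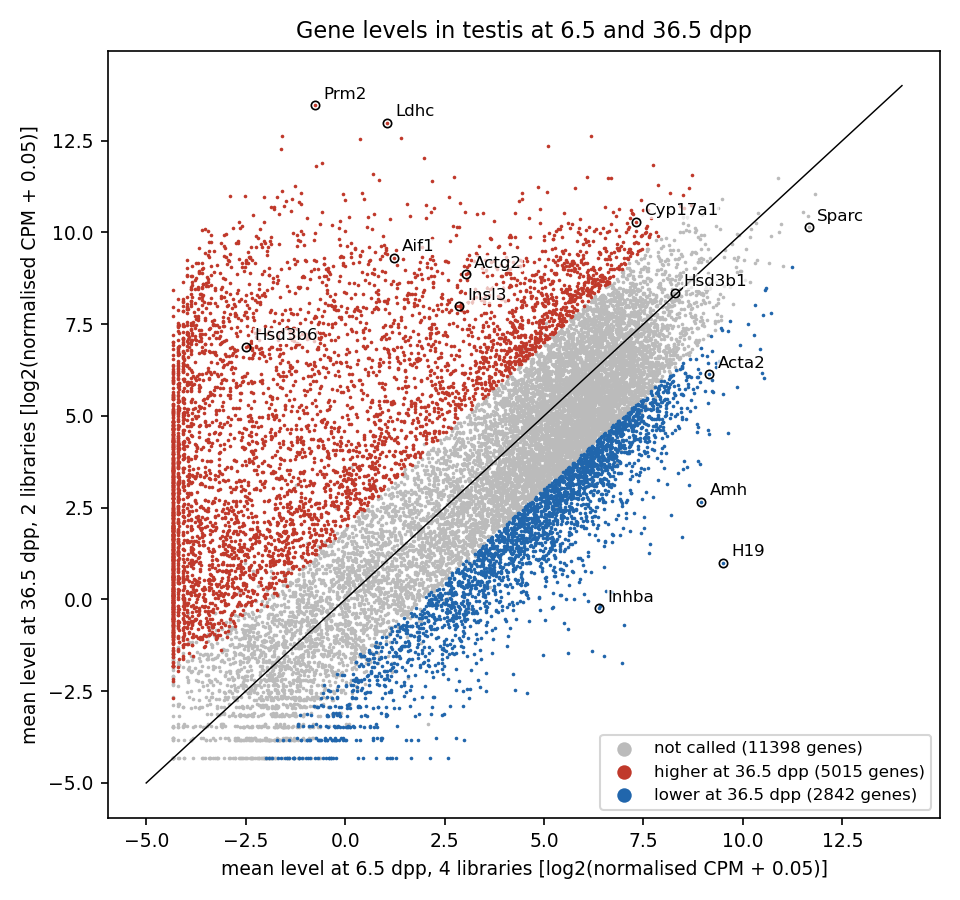
Mean normalised CPM of each tested gene at 6.5 dpp (x axis) and 36.5 dpp (y axis), both on log axes, with genes that rose (5015) and fell (2842) in colour and all others in grey. The genes that rose spread over the whole upper left, down to levels near 0 at 6.5 dpp, whereas the genes that fell lie in a narrower band below the diagonal.

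These calls rest on a scaling between libraries of very different make-up. The genes that rose held 56.2% and 56.4% of all counts at 36.5 dpp and 4.84% to 5.12% at 6.5 dpp, and the genes that fell held 1.87% and 1.98% against 19.2% to 22.9%. The TMM factors, 0.661 and 0.645 at 36.5 dpp and 0.997 to 1.13 at 6.5 dpp, set the median tested gene at a log2 fold change of -0.01. With the library size alone as the scale, all log2 fold changes shifted by a median of -0.74, and the calls became 4120 higher and 5086 lower, 44.8% higher in place of 63.8%. Changes are given on the TMM scale, and a rise smaller than that shift turns its sign with the library size alone. In whole tissue, a gene's lower level can come from fewer cells of a type or from less RNA per cell. It can also come from a smaller share of that type as germ cells increase, which the paper names as a possibility for somatic genes. These cannot be told apart here.

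None of the 10 genes with the highest mean CPM, taken before TMM scaling, was shared by the 2 ages. At 6.5 dpp they were the mitochondrial genes COX1, ND1 and CYTB, the matrix glycoprotein gene Sparc, the chaperone gene Hsp90ab1, the translation factor genes Eef1a1 and Eef2, the Sertoli cell products Ctsl and Clu, and Maged1 on the X chromosome. Sparc took 0.347% of the counts on average at 6.5 dpp and 0.0629% to 0.0858% at 36.5 dpp. At 36.5 dpp they were Prm1, Prm2, Tnp1 and Tnp2, whose proteins replace histones in the sperm head, the outer dense fibre gene Odf2, the fibrous sheath gene Akap4, the lactate dehydrogenase gene Ldhc, and Fhl4, Phf7 and Atp8b3. Prm2 alone took 0.742% of the counts. Together the 10 leading genes of each library held 4.48% and 3.86% of the counts at 36.5 dpp, and 2.87%, 2.35%, 2.74% and 3.56% at 6.5 dpp. The groups did not overlap (exact permutation test, two-sided, p = 0.133, which is the smallest that 2 against 4 libraries allow, and 0.133 after adjustment over 3 shares).

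Genes were ranked by size of change among called genes whose groups did not overlap. They also needed a mean of at least 10 CPM before TMM scaling in the higher group and more than 3 counts in a library of the lower one. The 10 with the greatest rise were 4930571K23Rik, Cabs1, Ropn1, Smcp, Prm1, Prm2, Fscb, Kif2b, Tmco2 and Tnp2, with log2 fold changes from 14.04 to 14.87. In 4930571K23Rik, Cabs1, Ropn1, Smcp, Fscb, Kif2b and Tmco2, only fresh replicate 2 had more than 3 counts at 6.5 dpp, with 4 to 14. Their folds and their order thus rest on few reads. Prm1, Prm2 and Tnp2 pack the chromatin of the sperm head, and Ropn1, Smcp and Fscb belong to the sperm tail. The genes with the greatest fall by the same rule were of another kind. Among them were the imprinted genes H19, Zim1 and Dlk1, then Bcan, a proteoglycan of the matrix, Tubb2b, a beta tubulin, Lgals7, a galectin, Omp, Mmp2, a collagenase of the matrix, and Inhba, the activin beta A subunit of the inhibin family. Log2 fold changes were -8.52 for H19, -7.20 for Omp, -6.79 for Mmp2 and -6.70 for Inhba. That the groups did not overlap in these genes was required by the rule.

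On the somatic side, 16 lists of genes known from Sertoli, Leydig, peritubular, interstitial, vascular, immune and red blood cells were followed. Of their 177 tested genes, 79 fell (44.6%, against 14.8% of all tested genes), 18 rose (10.2%, against 26.0%) and 80 were not called, with a median log2 fold change of -1.89. The whole of these lists held 0.804% and 0.772% of the counts at 36.5 dpp and 3.30% to 3.91% at 6.5 dpp. The lists differed widely among themselves: medians ran from -6.34 for the fetal Leydig genes to 1.81 for the MHC class II genes. The fetal Leydig median was -4.38 with Mc2r, which had no count at 36.5 dpp, set to a bound of 3 counts. Vsnl1, also at the floor, kept its fitted value in both medians. With fresh replicate 1 added at 6.5 dpp, 70 fell and 15 rose, and without CSF replicate 3, 80 fell and 18 rose. With the library size alone, 98 fell and 14 rose. The counts over single lists below stand against the same shares of all tested genes, 14.8% fallen and 26.0% risen. In a short list a count near these shares says little about its members.

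**Figure D2:**
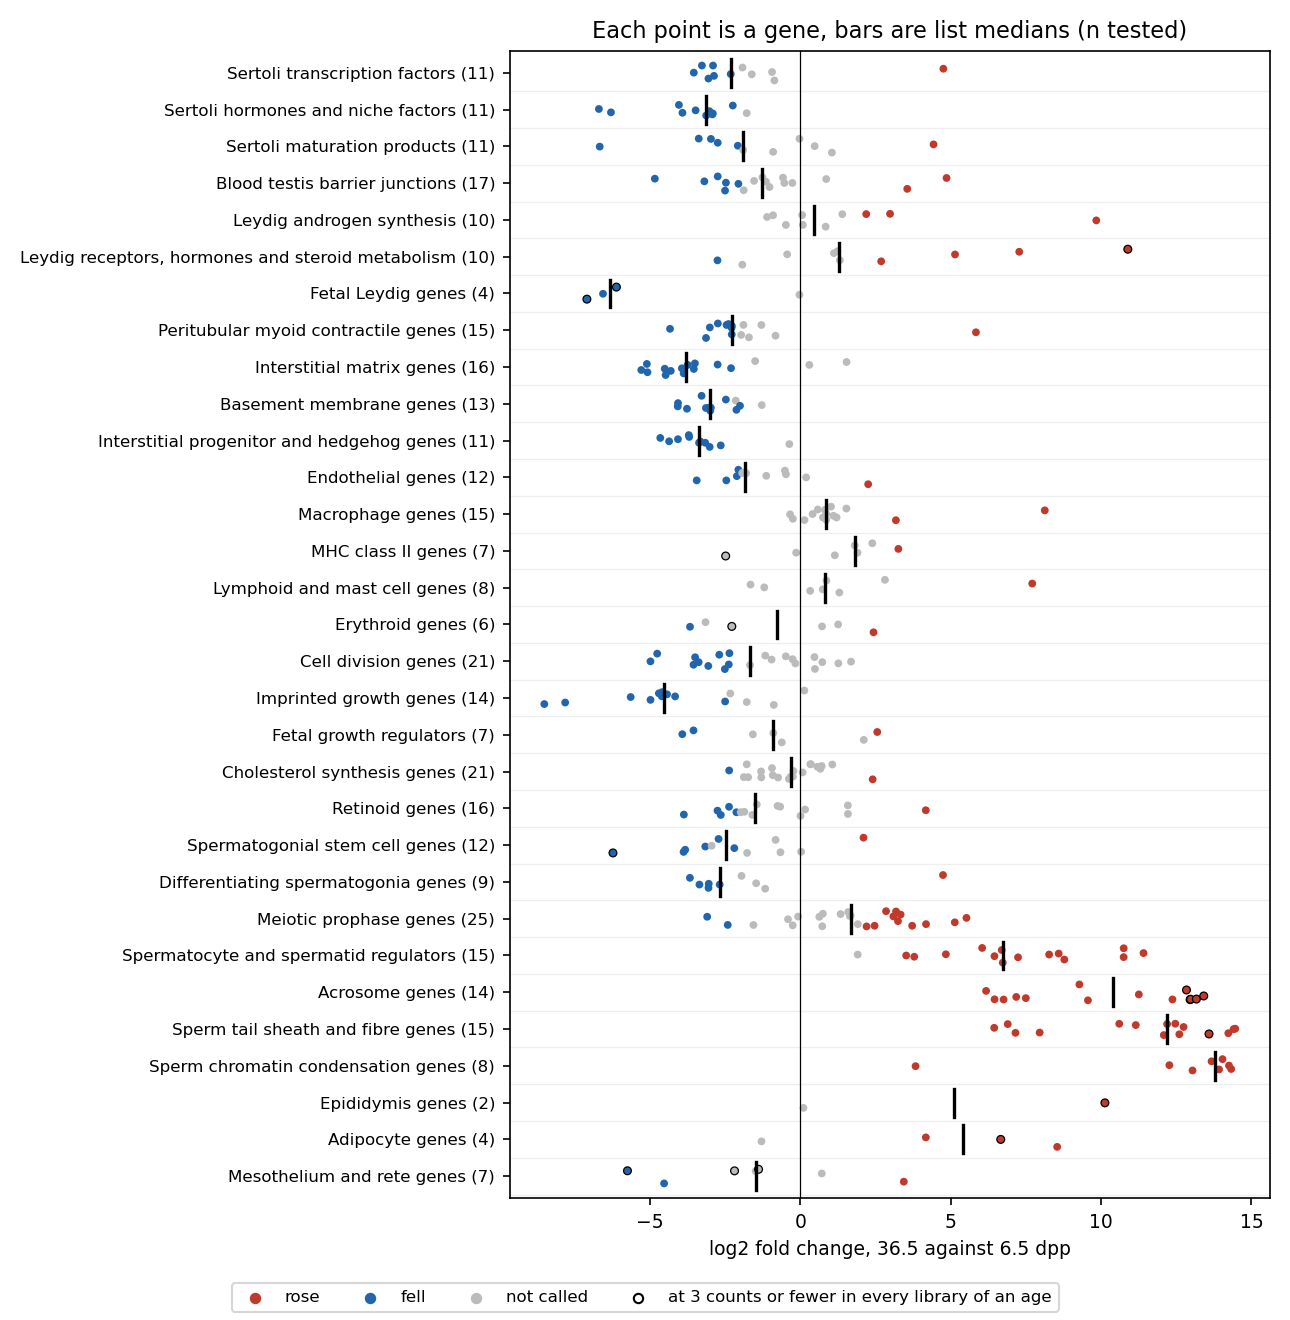
Log2 fold change from 6.5 to 36.5 dpp (x axis) of every tested gene in each list (rows, with the number tested), with points marking genes that rose, fell, were not called or had at most 3 counts in every library of an age, and bars marking list medians. The Sertoli, myoid, matrix and basement membrane rows lie mostly left of 0, the fetal Leydig row has its median farthest left of the somatic rows, the other Leydig rows and the macrophage row lie around or right of 0, and the spermatid rows far to the right, while single genes such as Aif1, Actg2 and Cldn3 stand away from their rows.

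The Sertoli cell transcription factors were mostly lower at 36.5 dpp. Of 11 tested, 6 fell, 1 rose and 4 were not called [7 fell and 1 rose without CSF replicate 3], with a median log2 fold change of -2.32. Dmrt1, which keeps Sertoli cells in their male identity and is also made by spermatogonia, fell most, with 35.4 and 25.5 normalised CPM at 36.5 dpp and 361, 349, 315 and 396 at 6.5 dpp (log2 fold change -3.55, SE 0.276, adjusted p = 2.82e-09). Sox9, the testis-determining factor downstream of Sry, stood at 21 and 20.8 normalised CPM at 36.5 dpp and 178, 169, 153 and 113 at 6.5 dpp (log2 fold change -2.87 ± 0.31). Gata4, Sox8, Rhox8 and Wt1 fell as well, with log2 fold changes of -3.28, -2.91, -3.06 and -2.32. The groups did not overlap in any of these 6 genes, which held for 2839 of all 2842 genes that fell.

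Not all regulators moved so far. Nr5a1, shared by Sertoli and Leydig cells, had a log2 fold change of -1.93, Nr0b1 of -0.94 and Gata1 of -0.87, none of them past the threshold of size. Rhox5, an androgen-regulated homeobox gene of Sertoli cells on the X chromosome, went the other way, from 0.243, 0.0737, 0 and 0.0354 normalised CPM at 6.5 dpp to 2.7 and 2.59 at 36.5 dpp (log2 fold change 4.75 ± 0.64), so it rose at low levels.

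The hormones and niche factors of Sertoli cells were nearly all lower. Of 11 genes, 10 fell and none rose [9 fell and none rose with fresh replicate 1 added], and the median was -3.13. Amh, the anti-Müllerian hormone of immature Sertoli cells, stood at 5.17 and 7.42 normalised CPM at 36.5 dpp and 583, 381, 549 and 474 at 6.5 dpp (log2 fold change -6.30, SE 0.291, adjusted p = 2.11e-11). Each 6.5 dpp library lay far above both 36.5 dpp libraries. At the ages between, the median of Amh was 328 at 10.5 dpp and 33.3 at 22.5 dpp, so the widest step lay between those ages.

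The beta subunits of activin and inhibin differed. Inhba stood at 0.764 and 0.838 normalised CPM at 36.5 dpp and 53.8, 87.4, 117 and 76.5 at 6.5 dpp, and Inhbb at 37.4 and 58.1 normalised CPM at 36.5 dpp and 442, 403, 375 and 236 at 6.5 dpp. Both fell (log2 fold changes -6.70 and -2.93), and within a library the counts of Inhba were 0.0204 and 0.0144 of those of Inhbb at 36.5 dpp and 0.122 to 0.325 of them at 6.5 dpp, a ratio that no scaling between libraries moves. The alpha subunit gene Inha, which inhibins need, stood at 199 and 185 normalised CPM at 36.5 dpp and 753, 527, 646 and 725 at 6.5 dpp and was not called (log2 fold change -1.79), the smallest change of the list. Fst, the activin-binding follistatin, fell as well (-2.91).

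Signals to germ cells and neighbouring somatic cells were part of the same list. Gdnf, the growth factor that maintains spermatogonial stem cells, fell from 30.7, 32.8, 40.4 and 15.9 to 1.84 and 1.8 normalised CPM (log2 fold change -4.04 ± 0.46), and so did Fgf2, which acts beside it (-3.92). Kitl, the ligand of the Kit receptor on differentiating spermatogonia, fell from 301, 338, 441 and 327 to 37.1 and 25.8 normalised CPM (-3.49). Dhh, the hedgehog ligand that Sertoli cells send to the interstitium (-3.13), the chemokine gene Cxcl12 (-2.25) and Fshr, the receptor through which FSH reaches Sertoli cells (-3.03), fell with them.

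Products that mark the maturing Sertoli cell were the most mixed of the Sertoli lists, with 5 that fell, 1 that rose and 5 not called of 11 [5 fell and none rose with fresh replicate 1 added, and 4 fell and 1 rose without CSF replicate 3], and a median of -1.91. Hsd17b1, a 17-beta-hydroxysteroid dehydrogenase of fetal Sertoli cells, fell most, with 1.03 and 0.638 normalised CPM at 36.5 dpp and 44.6, 63.4, 95.9 and 137 at 6.5 dpp (log2 fold change -6.67 ± 0.52). Shbg, Mro, Aard and Cst12 fell, while Ctsl and Clu, among the genes with the most counts at 6.5 dpp, were not called (-1.91 and -0.91). Trf, the gene of transferrin, which carries iron to germ cells, stood at 27.4 and 32.8 normalised CPM at 36.5 dpp and 17.6, 12.2, 13 and 15.5 at 6.5 dpp and was not called (log2 fold change 1.05, and 0.31 with the library size alone). Espn, of the ectoplasmic specialisation, overlapped between the ages and turned from 0.47 to -0.29 with that scaling. Tsx, a testis-specific X-linked gene, rose from 1.51, 1.53, 1.3 and 3.61 to 53.2 and 31 normalised CPM (log2 fold change 4.43 ± 0.33). With fresh replicate 1 added, Tsx was no longer called, since that library held 38.1 normalised CPM of it.

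The junction genes of the blood-testis barrier split by member. Among 17 genes, 6 fell and 2 rose (against 14.8% and 26.0% of all tested genes) and 9 were not called [5 fell and 2 rose with fresh replicate 1 added, and 7 fell and 2 rose without CSF replicate 3], and the median was -1.26. Cxadr, an adhesion protein of tight junctions that germ cells and Sertoli cells share, fell from 62.5, 75.1, 72.6 and 65.9 to 2.29 and 2.51 normalised CPM (log2 fold change -4.84, SE 0.388, adjusted p = 4.14e-09). The tight junction genes Ocln, F11r and Jam2, the gap junction gene Gja1 and the catenin gene Ctnnb1 fell, with log2 fold changes between -3.19 and -2.06. Cldn11, the main claudin of the barrier strands, was not called and stood at 89.2 and 108 normalised CPM at 36.5 dpp and 339, 218, 120.2 and 269 at 6.5 dpp. The scaffold gene Tjp1 overlapped between the ages, with CSF replicate 3 below both 36.5 dpp libraries (the values were 91.7 and 175 at 36.5 dpp and 232, 249, 229 and 86.5 at 6.5 dpp).

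A pair of junction genes rose. Cldn3, a claudin that Sertoli cells make under androgen at the newly formed barrier, stood at 46.6 and 85.9 normalised CPM at 36.5 dpp and 2, 1.92, 1.54 and 3.75 at 6.5 dpp (log2 fold change 4.86 ± 0.37), and Marveld3, a relative of occludin, went from 0.0934, 0.184, 0.261 and 0.531 to 2.47 and 3.47 normalised CPM (3.55 ± 0.53). Within a library Cldn3 had 0.522 and 0.799 of the counts of Cldn11 at 36.5 dpp, 0.0059 to 0.0139 at 6.5 dpp and 0.0152 to 0.0202 at 22.5 dpp. The wider step of this ratio lay between 22.5 and 36.5 dpp.

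The Leydig lists were followed next. Of the 10 genes of androgen synthesis, 3 rose (30%, near the 26.0% of all tested genes), none fell (against 14.8%) and 7 were not called, with a median log2 fold change of 0.46, which turned to -0.27 with the library size alone. The difference between this median and that of the Sertoli transcription factors, 2.78 on the log2 scale, lay between 2.67 and 3.09 under the alternatives tried. Cyp11a1, the side-chain cleavage enzyme that makes pregnenolone from cholesterol, stood at 720.1 and 583 normalised CPM at 36.5 dpp and 167, 98.1, 146 and 162 at 6.5 dpp (log2 fold change 2.19, SE 0.34, adjusted p = 1.21e-05). Cyp17a1, which turns progestagens into androgens, stood at 1386 and 1126 normalised CPM at 36.5 dpp and 113, 139, 143 and 241 at 6.5 dpp (log2 fold change 2.98, SE 0.282, adjusted p = 3.1e-08). Both were higher in each older library than in any younger one, as were all 5015 genes that rose. Their medians at 22.5 dpp were 337 and 356 normalised CPM. With the library size alone, Cyp11a1 had a log2 fold change of 1.46 and was no longer called.

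The widest difference lay in the 3-beta-hydroxysteroid dehydrogenases, which turn pregnenolone into progesterone. Hsd3b6, the isoenzyme of adult Leydig cells, stood at 135 and 102 normalised CPM at 36.5 dpp and 0.168, 0.11, 0.0869 and 0.141 at 6.5 dpp (log2 fold change 9.84, SE 0.614, adjusted p = 2.21e-10). Hsd3b1, its neighbour on chromosome 3, overlapped between the ages, with 385 and 271 normalised CPM at 36.5 dpp and 315, 215, 362 and 371 at 6.5 dpp (log2 fold change 0.06, and -0.67 with the library size alone). In counts of the same library, Hsd3b6 was 0.349 and 0.376 of Hsd3b1 at 36.5 dpp, 0.639 to 0.676 of it at 22.5 dpp, and 0.00024 to 0.00053 of it at 6.5 dpp. The promoters of the pair are shown because they lie next to each other, belong to close relatives and differed in readout. The Hsd3b genes form a family of similar sequences, so reads shared between members could be placed on either. Each is 300 bases of GRCm38.p6 from RefSeq, 250 before and 50 after the annotated start, read 5′ to 3′ on the minus strand, with CG dinucleotides in capitals, and neither holds more than 3 of them. The windows span chr3:98814394-98814693 for Hsd3b6 and chr3:98859745-98860044 for Hsd3b1.
Hsd3b6: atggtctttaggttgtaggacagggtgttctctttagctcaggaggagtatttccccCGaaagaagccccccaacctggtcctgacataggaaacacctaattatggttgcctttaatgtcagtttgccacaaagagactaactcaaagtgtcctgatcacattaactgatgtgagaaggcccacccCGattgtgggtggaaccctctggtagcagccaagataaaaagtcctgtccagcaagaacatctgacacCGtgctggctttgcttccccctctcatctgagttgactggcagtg
Hsd3b1: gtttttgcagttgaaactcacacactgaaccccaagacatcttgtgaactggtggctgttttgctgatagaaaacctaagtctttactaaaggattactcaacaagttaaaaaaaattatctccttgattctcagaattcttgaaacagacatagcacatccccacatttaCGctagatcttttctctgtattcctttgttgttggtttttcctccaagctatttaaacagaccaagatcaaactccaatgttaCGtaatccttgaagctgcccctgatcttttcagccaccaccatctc

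The remaining steps of androgen synthesis showed smaller differences. Star, which brings cholesterol into mitochondria, stood at 159 and 179 normalised CPM at 36.5 dpp and 91.3, 71.4, 77.5 and 137 at 6.5 dpp and was not called (0.84). Hsd17b3, which makes testosterone in the last step, stood at 138 and 78.8 normalised CPM at 36.5 dpp and 98, 111, 166 and 232 at 6.5 dpp, with overlap between the ages (-0.48). Its counts were 134 and 124 times those of Hsd17b1 in the 36.5 dpp libraries and 1.69 to 2.20 times in the 6.5 dpp libraries. Scarb1, the receptor for HDL cholesterol, had a log2 fold change of 0.08, turned to -0.66 by the library size alone, and Fdx1, Fdxr and Por, the electron donors of the P450 enzymes, were not called (1.39, -0.91 and -1.11).

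Among the receptors, hormones and steroid-metabolising genes of Leydig cells, 4 of 10 rose and 1 fell (against 26.0% and 14.8% of all tested genes) and 5 were not called [none fell and 3 rose with fresh replicate 1 added], with a median of 1.27. Insl3, the relaxin-like peptide of mature Leydig cells, stood at 263 and 244 normalised CPM at 36.5 dpp and 5.53, 3.87, 5.69 and 13.8 at 6.5 dpp (log2 fold change 5.14, SE 0.665, adjusted p = 1.44e-06). Lhcgr, the receptor gene through which LH acts on these cells, stood at 33.2 and 33.1 normalised CPM at 36.5 dpp and 15.1, 14.3, 15.8 and 11.2 at 6.5 dpp and was not called (1.23), and the counts of Insl3 were 7.93 and 7.36 times those of Lhcgr at 36.5 dpp against 0.270 to 1.23 times at 6.5 dpp. Cyp19a1, the aromatase gene, went from 0.0561, 0.0737, 0.0869 and 0 to 9.39 and 9.85 normalised CPM and rose (7.28), and Ptgds, a prostaglandin synthase, rose as well (2.69, and 1.97, not called, with the library size alone).

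Steroid metabolism ran in both directions. Sult1e1, the estrogen sulfotransferase of adult Leydig cells, had 116 and 42.3 normalised CPM at 36.5 dpp and at most 3 counts in each 6.5 dpp library. Akr1c14, a 3-alpha-hydroxysteroid dehydrogenase that makes androstanediol in the immature testis, fell from 33.3, 27.1, 55.7 and 91.7 to 11.8 and 3.59 normalised CPM (log2 fold change -2.76 ± 0.48). Srd5a1, the 5-alpha-reductase that acts before it, stood at 7.32 and 6.66 normalised CPM at 36.5 dpp and 9.64, 9.1, 9.78 and 9.44 at 6.5 dpp and was not called (-0.44), and neither was Hsd11b1 (-1.93), whose 6.5 dpp libraries were uneven, with 1.79, 1.79, 2.78 and 7.11 normalised CPM.

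The genes of the fetal Leydig generation were lower at 36.5 dpp, with 3 of 4 called [2 fell and none rose with fresh replicate 1 added]. Thbs2, a thrombospondin, fell from 103, 129.6, 125 and 65.3 to 0.899 and 1.32 normalised CPM (log2 fold change -6.56, SE 0.506, adjusted p = 2.6e-09). Mc2r, the ACTH receptor gene, had no count in either 36.5 dpp library and 0.336, 0.331, 0.522 and 0.389 normalised CPM at 6.5 dpp, and Vsnl1, a neuronal calcium sensor gene, had at most 3 counts in each 36.5 dpp library against 1.29, 1.29, 1.46 and 2.72 normalised CPM at 6.5 dpp, so no fold is given for these. Crhr1 overlapped between the ages at levels from 0.46 to 1.89 normalised CPM.

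**Figure D3:**
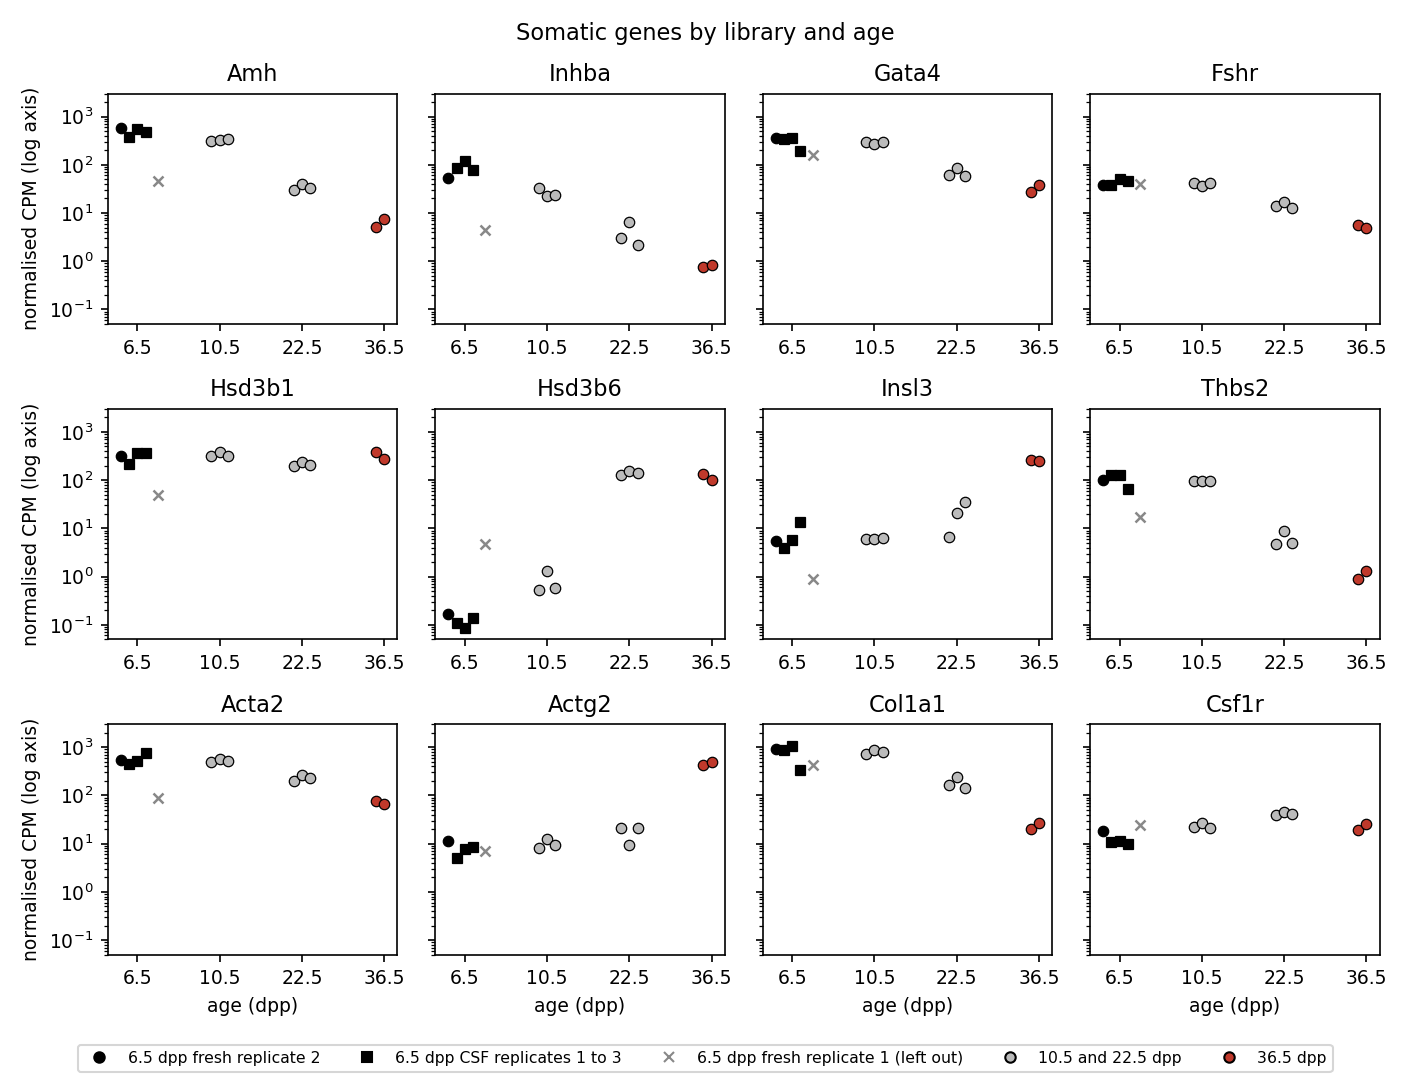
Normalised CPM (y axis, log scale) of somatic genes in each library, with a panel for each gene. Points mark the 6 libraries compared, 6.5 dpp fresh replicate 1, which was left out, and the 10.5 and 22.5 dpp libraries. The 10.5 and 22.5 dpp libraries entered the fit but not the comparison itself. Amh falls with age while Hsd3b6 and Insl3 rise, and Hsd3b1 lies at 385 and 271 normalised CPM at 36.5 dpp within reach of its 6.5 dpp values.

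The wall of the tubule was lower in most of its genes. Of 15 contractile genes of peritubular myoid cells, which vascular smooth muscle shares, 9 fell, 1 rose and 5 were not called [6 fell and 1 rose with fresh replicate 1 added, and 8 fell and 1 rose without CSF replicate 3], with a median of -2.28. Acta2, the smooth muscle actin that marks these cells, stood at 75 and 66.1 normalised CPM at 36.5 dpp and 554, 457, 519.9 and 749.9 at 6.5 dpp (log2 fold change -3.01, SE 0.286, adjusted p = 3.19e-08). Myocd, the coactivator that switches on the smooth muscle programme, fell most (0.27 and 0.359 normalised CPM at 36.5 dpp and 6.45, 9.47, 7.78 and 1.95 at 6.5 dpp). Cald1, Tpm1, Myh11, Smtn, Lmod1, Myl9 and Tagln fell, with log2 fold changes between -3.14 and -2.28. Des, Cnn1, Mylk and Tpm2 were below the threshold of size, at -1.89, -1.30, -1.71 and -1.97.

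Another smooth muscle actin gene did the opposite. Actg2, the gamma actin of visceral smooth muscle, stood at 425 and 504 normalised CPM at 36.5 dpp and 11.1, 5.06, 7.76 and 8.56 at 6.5 dpp (log2 fold change 5.84, SE 0.391, adjusted p = 4.77e-10). Its counts were 5.66 and 7.62 times those of Acta2 at 36.5 dpp, 0.0111 to 0.0200 times at 6.5 dpp and 0.0368 to 0.108 times at 22.5 dpp. The coding sequences of the actins are near copies of each other, which makes reads hard to place, and how shared reads were counted is not given in the sources used here.

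Matrix genes fell together. Of 16 genes of the interstitial matrix, 13 fell and none rose [12 fell and none rose with fresh replicate 1 added, and 12 fell and none rose without CSF replicate 3], with a median log2 fold change of -3.82, the lowest but that of the fetal Leydig genes among the somatic lists. Col5a2, a chain of the fibrillar collagen V, fell most (3.46 and 3.79 normalised CPM at 36.5 dpp and 149, 139, 197 and 83.3 at 6.5 dpp). The chains of collagen I and III stood at 19.6 and 26.6 normalised CPM at 36.5 dpp and 908, 857, 1039.5 and 339.9 at 6.5 dpp for Col1a1, 61.6 and 81.7 at 36.5 dpp and 1579, 1534, 1808 and 769 at 6.5 dpp for Col1a2 and 57.4 and 74 at 36.5 dpp and 1659, 1475, 1913 and 829 at 6.5 dpp for Col3a1. The log2 fold changes of these 3 genes were -5.09, -4.31 and -4.48. Their groups did not overlap, which held for 2839 of all 2842 genes that fell. Collagen VI genes (Col6a1, Col6a2 and Col6a3), Eln (elastin), Fn1 (fibronectin) and Lum (lumican) fell, with log2 fold changes from -5.11 to -3.55.

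The small proteoglycans of the matrix also fell. Bgn, biglycan, stood at 21.8 and 24.6 normalised CPM at 36.5 dpp and 272, 314, 295 and 174 at 6.5 dpp (log2 fold change -3.51 ± 0.29), and Dcn, decorin, at 242 and 78.5 normalised CPM at 36.5 dpp and 524, 446, 735 and 1464 at 6.5 dpp (-2.31 ± 0.48). Dcn was the least even of them, with replicate 1 of 36.5 dpp above replicate 2 and CSF replicate 3 above the other 6.5 dpp libraries. Sparc was not called (-1.51), and neither were Postn (0.30, with overlap) and Tnc, tenascin C, which was the only member higher in both older libraries, with 4.76 and 5.74 normalised CPM at 36.5 dpp and 2.13, 1.55, 2.56 and 0.955 at 6.5 dpp.

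Of 13 basement membrane genes, 11 fell and none rose [10 fell and none rose with fresh replicate 1 added, and 12 fell and none rose without CSF replicate 3], with a median of -3.0. Col4a1 and Col4a2, the chains of the common collagen IV network, stood at 44 and 65.6 at 36.5 dpp and 1045, 1089, 1202 and 371 at 6.5 dpp and at 32.1 and 49.1 at 36.5 dpp and 675, 690.4, 671 and 186 at 6.5 dpp, in normalised CPM. The laminin genes Lamb1, Lamc1, Lama1, Lama2 and Lama4, the nidogen genes Nid1 and Nid2, the perlecan gene Hspg2 and Col4a3 fell. Lamb2 (-1.29) and Lama5 (-2.15) were not called, and their ages overlapped in CSF replicate 3. That library was lowest of the 6.5 dpp libraries in every laminin, collagen IV and nidogen gene named here.

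Genes of interstitial progenitors and of the hedgehog pathway were lower as well. Of 11 genes, 10 fell and none rose (-3.37). Gli1, a direct target of hedgehog signalling, fell from 52.6, 61.2, 63.9 and 27.2 to 1.44 and 2.59 normalised CPM (log2 fold change -4.66, SE 0.408, adjusted p = 1.19e-08), and so did Ptch1, the receptor (-3.71), and Gli2 (-3.37). Tcf21 and Nr2f2, transcription factors of interstitial mesenchyme, Nes, a marker of Leydig progenitors, and the PDGF receptor genes Pdgfra and Pdgfrb fell. Igf1, a growth factor for Leydig cells, fell to 18.6 and 16.5 normalised CPM (-2.65).

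Vessel genes were lower in part. Of 12 endothelial genes, 4 fell and 1 rose (against 14.8% and 26.0% of all tested genes) and 7 were not called [5 fell and none rose with fresh replicate 1 added, and 5 fell and none rose without CSF replicate 3] (-1.85). Cdh5, the cadherin of endothelial junctions, fell from 95.6, 111, 112 and 63.9 to 7.28 and 10.2 normalised CPM (log2 fold change -3.45 ± 0.29), and Pecam1, Eng and Emcn fell (-2.46, -2.11 and -2.06). The VEGF receptor gene Flt1 overlapped between the ages (0.19). Vwf, the von Willebrand factor gene, was called higher, with 17 and 35.6 normalised CPM at 36.5 dpp and 6.99, 7.46, 5.85 and 1.66 at 6.5 dpp (2.25), but without CSF replicate 3, and with the library size alone (1.48), it was not called.

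Macrophage genes were near the median of all genes or above it. Of 15, 2 rose, none fell and 13 were not called, with a median of 0.86 that was 0.11 with the library size alone. Csf1r, the receptor that macrophages need to live, stood at 18.9 and 25.5 normalised CPM at 36.5 dpp and 18.4, 11.1, 11.4 and 9.62 at 6.5 dpp and was not called (0.81). Adgre1 (F4/80) and Cd68 overlapped between the ages (0.40 and -0.34), and C1qb was not called (1.53). Folr2 rose at low levels, from 0.392, 0.166, 0.391 and 0.283 to 3.55 and 2.07 normalised CPM.

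A single macrophage gene stood far from its list. Aif1, which encodes the IBA1 protein used to stain macrophages, stood at 603 and 672 normalised CPM at 36.5 dpp and 2.45, 1.55, 2.04 and 3.15 at 6.5 dpp (log2 fold change 8.13, SE 0.578, adjusted p = 9.8e-10). Its level was 2.97 normalised CPM in the median of 10.5 dpp and 23.8 in that of 22.5 dpp. The next largest log2 fold change of the 15 was that of Folr2 (3.18), and the defining markers Csf1r, Adgre1, C1qa and Cd163 lay between 0.40 and 1.02 on the log2 scale. The sum over the list, 934 to 957 normalised CPM at 36.5 dpp against 118 to 212 at 6.5 dpp, was thus mostly the level of Aif1.

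Other immune lists also held a single gene that rose. Of 7 MHC class II genes, 1 rose and none fell [none fell and 2 rose without CSF replicate 3] (1.81): H2-DMa, which loads peptides, went from 2.9, 1.92, 2.06 and 1.87 to 21.8 and 20.2 normalised CPM, whereas H2-Ab1 (2.39), Cd74 (1.81) and H2-Eb1 (-0.14) were not called. Ciita, the master regulator of the class, had at most 3 counts in each 36.5 dpp library against 0.673, 1.14, 0.782 and 0.248 normalised CPM at 6.5 dpp and was not called. Of 12 lymphoid and mast cell genes, 8 passed the filter and 1 rose. It was Cd3d, a chain of the T cell receptor complex, with 28.6 and 14.4 normalised CPM at 36.5 dpp and 0.0748, 0.0184, 0.0869 and 0.283 at 6.5 dpp (7.71 ± 0.86), while Cd3e, which is needed in the same complex, stood at 0.315 and 0.16 at 36.5 dpp and 0.131, 0.129, 0.13 and 0.177 at 6.5 dpp and Cd3g did not pass the filter. Cd79a, of B cells, was at the lower end of the list (-1.66).

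Red cell genes were low at both ages. Of 9, 6 passed the filter, and of these 1 rose and 1 fell (against 26.0% and 14.8% of all tested genes) [none fell and 1 rose with fresh replicate 1 added]. Alas2, which makes heme in erythroid cells, rose from 7.25, 4.13, 6 and 9.37 to 38.4 and 33.5 normalised CPM (2.43 ± 0.30, and 1.71, not called, with the library size alone). The globin genes Hba-a1 and Hbb-bt stood at 4.31 and 2.79 at 36.5 dpp and 27, 17.3, 18 and 64.5 at 6.5 dpp and 3.46 and 0.399 at 36.5 dpp and 11.4, 10.1, 11.5 and 65 at 6.5 dpp, with CSF replicate 3 above the others, and of these Hbb-bt was called. Hba and Hbb genes lie in near-identical copies whose reads cannot be placed with certainty. The list median of -0.78 turned to 0.81 without CSF replicate 3.

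Growth genes of the young testis were among the deepest falls. Of 14 imprinted genes that act on growth, 10 fell and none rose, with a median log2 fold change of -4.52. H19, a maternally expressed non-coding RNA, fell from 805, 866, 713 and 507 to 1.12 and 2.79 normalised CPM (log2 fold change -8.52, SE 0.604, adjusted p = 9.57e-10). Igf2, the paternally expressed growth factor gene beside it, fell from 6.11, 9.89, 7 and 2.58 to 0.18 and 0.519 (-4.17 ± 0.58). Dlk1 stood at 0.494 and 0.16 normalised CPM at 36.5 dpp and 53.9, 63.7, 84.8 and 91.1 at 6.5 dpp, and Plagl1, Mest, Nnat, Slc38a4, Ndn, Peg3 and Igf2r fell with it. Cdkn1c, a maternally expressed inhibitor of the cell cycle, overlapped between the ages (0.13), and so did Peg10 (-0.88). At 22.5 dpp the median level of H19 was 7.16 and that of Dlk1 0.737 normalised CPM, both well below their 6.5 dpp levels.

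Cell division genes were lower in part. Of 21, 10 fell and none rose (-1.68). Ccnd2, the D-type cyclin of Sertoli cells and spermatogonia, fell from 389, 471, 460.3 and 220.0 to 9.3 and 15 normalised CPM (log2 fold change -4.99, SE 0.419, adjusted p = 7.19e-09). The helicase genes Mcm2, Mcm3, Mcm4, Mcm5 and Mcm6, the thymidylate synthase gene Tyms, Ccna2, Ccnd1 and Mki67 fell. The other 11 were not called. Among these, Cdk1, Ccnb1, Top2a, Pcna, Birc5 and Bub1 overlapped between the ages. The log2 fold changes were -0.17 for Pcna, 0.47 for Birc5 and 0.73 for Bub1. Aurkb and Rrm2 had log2 fold changes of -1.68 and -1.17, and Plk1 and Foxm1 of 1.26 and 1.68. Mcm7, the remaining subunit of the helicase, stood at 275 and 259 normalised CPM at 36.5 dpp and 164, 165, 185 and 250.1 at 6.5 dpp (0.48, and -0.24 with the library size alone).

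Fetal growth regulators moved in both directions, with 2 of 7 that fell and 1 that rose (against 14.8% and 26.0% of all tested genes) [2 fell and 2 rose without CSF replicate 3]. Trim71 and Igf2bp2 fell (-3.93 and -3.56), Igf2bp1 and Lin28b were not called, and Igf2bp3, an RNA-binding protein of the same family, rose from 24.7, 25.1, 34.3 and 32.3 to 187 and 155 normalised CPM (2.56 ± 0.32). With the library size alone Igf2bp3 was not called (1.82).

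Genes of lipid and retinoid supply were followed as well. Of 21 genes of cholesterol synthesis and uptake, 1 fell, 1 rose and 19 were not called (-0.33). Fdft1, squalene synthase, rose from 68.5, 69.3, 76.4 and 107 to 403 and 444 normalised CPM (2.40 ± 0.26), but it was not called with the library size alone (1.67), where none of the list rose and 6 fell.

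Of 16 retinoid genes, 5 fell and 1 rose (against 14.8% and 26.0% of all tested genes) and 10 were not called [4 fell and 1 rose without CSF replicate 3] (-1.53). Stra6, the receptor through which cells take up retinol, fell from 88.9, 83.1, 86.4 and 51.5 to 4.67 and 5.86 normalised CPM (-3.88 ± 0.32), and Cyp26b1, which degrades retinoic acid in the young testis, from 290.5, 249, 225 and 157 to 32.6 and 40.9 (-2.65 ± 0.36). Rarg and Crabp1 fell too. Lrat, which stores retinol as esters, rose from 1.74, 1.51, 1.24 and 1.91 to 32.5 and 24.9 (4.17 ± 0.31). Of the enzymes that make retinoic acid, Aldh1a1, known from Sertoli cells, overlapped between the ages (0.16), and Aldh1a2, known from germ cells, stood at 211 and 207 at 36.5 dpp and 60.9, 72, 74.7 and 71.3 at 6.5 dpp without passing the threshold of size (1.58).

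The germ cell lists give the other side of the comparison. Of 98 tested genes in 7 lists, 64 rose (65.3%, against 26.0% of all tested genes) and 13 fell (13.3%, against 14.8%). The spermatogonial genes were lower in part. Of 12 stem cell genes, 6 fell, 1 rose and 5 were not called [6 fell and none rose with fresh replicate 1 added]. Among those that fell were Ret, Sall4 and Zbtb16 (-3.89, -3.83 and -3.16). Nanos2 had at most 3 counts in each 36.5 dpp library against 1.42, 1.57, 1.5 and 2.76 normalised CPM at 6.5 dpp. Gfra1, Etv5 and Lhx1 were not called (-0.66, -0.83 and 0.02). Id4 rose, with 58.4 and 46.2 normalised CPM at 36.5 dpp and 13.5, 11.5, 12.9 and 10.9 at 6.5 dpp (2.10 ± 0.20, and 1.36, not called, with the library size alone). Of 9 genes of differentiating spermatogonia, 5 fell, Sohlh1 most (-3.67), Kit was not called (-1.17), and Dmrtb1, which acts at the end of the mitotic phase, rose from 44.3, 55.4, 25.4 and 47.6 to 1227 and 1082 normalised CPM.

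Genes of meiotic prophase were present at 6.5 dpp. Of 25, 11 rose, 2 fell (Mei4 and Tex11, -3.10 and -2.42) and 12 were not called [2 fell and 3 rose with fresh replicate 1 added, and 2 fell and 13 rose without CSF replicate 3], with a median of 1.67. Spo11, which makes the DNA breaks of recombination, rose most, from 2.41, 1.57, 1.74 and 1.49 to 89.2 and 77.2 normalised CPM (5.52 ± 0.36), whereas Prdm9, which places them, stood at 4.27 and 5.78 normalised CPM at 36.5 dpp and 5.46, 6.91, 4.02 and 4.81 at 6.5 dpp (-0.08). The median of Prdm9 was 21.6 normalised CPM at 22.5 dpp.

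Nearly all genes of the later lists rose. Of 15 regulators of spermatocytes and spermatids 14 rose (Mybl1 was not called, 1.91), and so did all 14 acrosome genes, all 15 genes of the tail sheath and fibres and all 8 genes of sperm chromatin condensation. The medians of these lists were 6.73, 10.41, 12.19 and 13.80. With fresh replicate 1 added, 8 regulators, 2 acrosome genes, 8 tail genes and 7 chromatin genes were called, and without CSF replicate 3 all 15 regulators were. Spata16 had the largest change among the regulators and Tbpl1 the smallest of those called (11.41 and 3.52). Izumo1, the sperm protein that binds the egg, had the smallest change of the acrosome genes (6.17). Prm1 stood at 7809 and 4876 normalised CPM at 36.5 dpp and 0.785, 0.203, 0.109 and 0.0354 at 6.5 dpp, and H1f6, a testis histone H1 of spermatocytes, at 4.58 and 2.23 normalised CPM at 36.5 dpp and 0.131, 0.129, 0.0869 and 0.707 at 6.5 dpp, the least of its list (3.83). The pan-germ cell helicase gene Ddx4 stood at 903 and 897 normalised CPM at 36.5 dpp and 247, 229.9, 257 and 256 at 6.5 dpp and was not called (1.86).

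Of the genes that the study itself used to mark cell types, Amh, Sox9, Gata4, Bgn, Dcn, Acta2 and Vim fell, the last from 931, 753, 990.3 and 1199 to 122 and 124 normalised CPM (-2.98 ± 0.21), and Cyp11a1, Cyp17a1, Prm1, Prm2 and Ccn5 rose. Ccn5, a matricellular protein, was at 7.41 and 5.31 normalised CPM at 36.5 dpp and 0.168, 0.166, 0.0869 and 0.424 at 6.5 dpp (5.00 ± 0.46). Hsd3b1 and Ddx4 were not called.

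Calls were also counted by chromosome. Of 800 tested genes on the X chromosome, 281 fell (35.1%) and 169 rose (21.1%), with a median log2 fold change of -1.54. On the 19 autosomes together 13.9% fell and 26.2% rose, and single autosomes ranged from 10.9% to 17.6% fallen and had medians from -0.34 to 0.39. The X chromosome held 1.49% and 1.16% of the counts at 36.5 dpp and 3.59% to 4.08% at 6.5 dpp, without overlap (exact permutation test, two-sided, p = 0.133, adjusted 0.133). The mitochondrial genome held 0.619% and 0.283% against 1.26% to 1.66% (the same test and p). On the Y chromosome, 14 of 22 tested genes rose and 5 fell, but its share of the counts was lower at 36.5 dpp. That share was 0.0200% and 0.0115% at 36.5 dpp and 0.0437% to 0.0664% at 6.5 dpp.

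**Figure D4:**
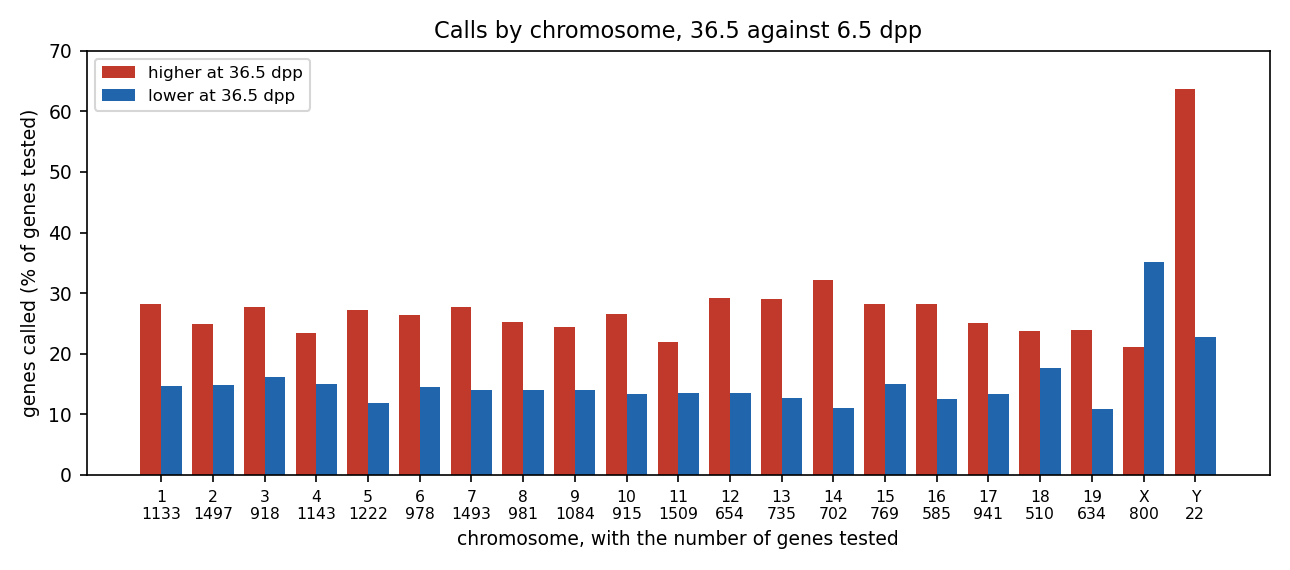
Percentage of the tested genes of each chromosome (x axis) that rose and that fell (y axis). The X chromosome has the highest fallen share of all, 35.1%, against 10.9% to 17.6% on the autosomes.

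The X chromosome is silenced in spermatocytes, and several X-linked housekeeping genes have copies on autosomes that germ cells use. In 18 pairs of a general gene and its testis copy, 10 had the general gene on the X chromosome. The testis copy rose in 15 and fell in none, and the general gene fell in 6, rose in 1 and was not called in 11. Of all tested genes, 26.0% rose and 14.8% fell. Medians were 4.16 for the testis copies and -1.63 for the general genes. In 6 pairs the copies moved apart, 5 of them with the general gene on the X chromosome, where 35.1% of all tested genes fell. The pairs of Rpl10 and Hspa8, whose levels are uncertain, are among these 6. For the pyruvate dehydrogenase subunit, Pdha1 fell from 58.2, 59, 71 and 69.6 to 10.7 and 11.7 normalised CPM (-2.53 ± 0.22) and Pdha2 rose from 8.95, 7.77, 11.8 and 10.5 to 302 and 305 (4.96 ± 0.35). Ddx3x and D1Pas1, a pair of RNA helicase genes, moved by -2.46 and 4.09. Ldha and Ldhc both rose (3.27 and 11.98), and in the pairs of Slc25a4, Cstf2 and Utp14a neither was called. Gapdh, Pgk1, Rpl10 and Hspa8 have processed copies elsewhere in the genome, so their reads are hard to place and their low levels are uncertain.

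The CG content of promoters was counted for genes that rose and fell. Windows from RefSeq were found for 15120 of the 19255 tested genes. The median number of CG dinucleotides in 300 bases was 7 for the 3958 genes that rose, 18 for the 2143 that fell and 19 for the 9019 not called, and 5 or fewer stood in 42.5%, 12.8% and 14.4% of them. Over all 27025 genes with a window, tested or not, the median was 7 and the share 43.6%. Among protein-coding genes alone the medians were 9, 18 and 20. Lists of both directions were found at either end. Medians were 3 for the tail genes (13 windows), 4 for chromatin condensation (8), 3 for the macrophage genes (10) and 3.5 for the Sertoli maturation products (6). They were 12 for the Sertoli hormones (9), 20 for the junction genes (11) and 21 for the spermatocyte and spermatid regulators (13). The window of Inhbb, which fell, at chr1:119422199-119422498, and that of Prm1, which rose, at chr16:10796774-10797073, are shown as a CG-rich and a CG-poor example, with 23 and 1 CG dinucleotides in capitals. Both genes lie on the minus strand, and both were chosen after their values were seen.
Inhbb: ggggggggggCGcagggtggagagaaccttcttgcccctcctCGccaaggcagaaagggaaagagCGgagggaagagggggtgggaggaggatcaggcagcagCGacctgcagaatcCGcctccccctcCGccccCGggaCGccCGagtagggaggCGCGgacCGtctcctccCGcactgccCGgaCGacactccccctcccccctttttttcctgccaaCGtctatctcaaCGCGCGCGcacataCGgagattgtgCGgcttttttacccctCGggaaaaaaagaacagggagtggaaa
Prm1: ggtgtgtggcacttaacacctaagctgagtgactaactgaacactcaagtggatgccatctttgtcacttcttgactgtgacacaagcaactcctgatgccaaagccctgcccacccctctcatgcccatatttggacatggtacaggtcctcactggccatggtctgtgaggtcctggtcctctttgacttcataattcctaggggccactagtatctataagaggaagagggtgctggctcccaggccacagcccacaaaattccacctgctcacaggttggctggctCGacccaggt

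**Figure D5:**
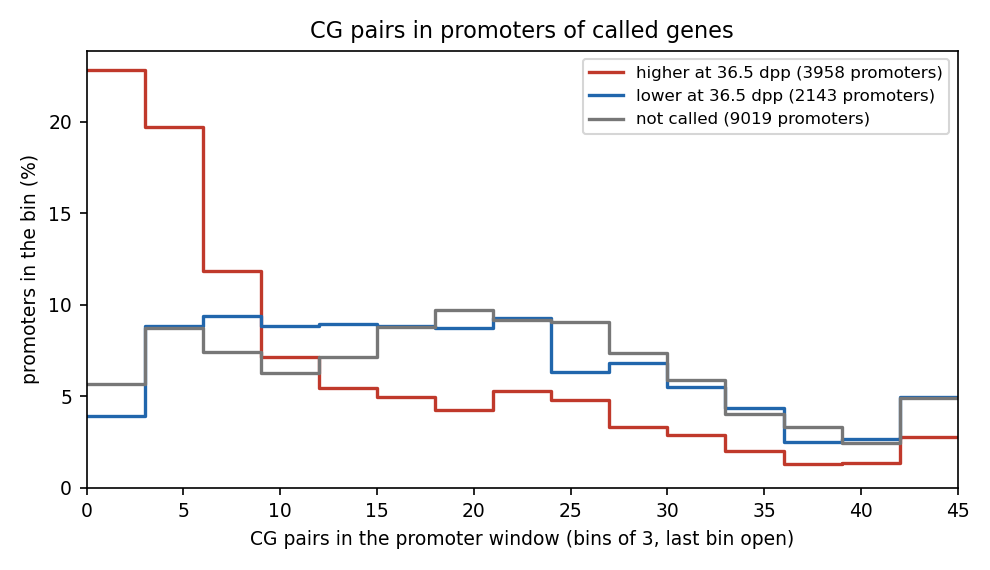
Percentage of promoters (y axis) by the number of CG dinucleotides in 300 bases (x axis) for genes that rose (3958), fell (2143) or were not called (9019). The genes that rose have their highest bars at few CG, with 42.5% at 5 or fewer, and the other classes are spread over higher numbers.

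The X-box, the site at which RFX factors bind in genes of cilia and flagella, was searched on both strands as GTTGCC and GG with any 2 bases between. It stood in 4.85% of the windows of genes that rose, 1.54% of those that fell, 2.30% of those not called and 2.29% of all windows. A stricter form, GTTGCCATG, stood in 1.87%, 0.280%, 0.432% and 0.759%. The GC box GGGCGGGG, the site of Sp factors, stood in 17.4%, 34.0%, 30.7% and 17.8%, and the cyclic AMP response element TGACGTCA in 2.32%, 2.15%, 3.10% and 1.88%. In the lists, the X-box stood in 0 of 13 windows of tail genes, 0 of 13 of spermatocyte and spermatid regulators and 1 of 13 of acrosome genes, and of all list genes with a window 1 that rose and 2 that fell held it. A factor of the RFX family, Rfx2, itself rose, with 389 and 811 normalised CPM at 36.5 dpp and 7.19, 6.46, 4.87 and 4.56 at 6.5 dpp (6.70 ± 0.42). An X-box is shown in capitals for a gene of the sperm tail and for a gene of the acrosome, both chosen after their values were seen. The tail gene, Spag6l, came from outside the lists, whose tail genes held no X-box. Spag6l, a protein of the central pair of the flagellum, at chr16:16829314-16829613, stood at 959 and 652 normalised CPM at 36.5 dpp and 0.392, 0.387, 0.478 and 0.495 at 6.5 dpp (10.85 ± 0.53). Zp3r, a zona pellucida receptor of the acrosome, at chr1:130629557-130629856, had 223 and 321 normalised CPM at 36.5 dpp and at most 3 counts in each 6.5 dpp library. Both genes lie on the minus strand, and in Zp3r the letters stand on the opposite strand.
Spag6l: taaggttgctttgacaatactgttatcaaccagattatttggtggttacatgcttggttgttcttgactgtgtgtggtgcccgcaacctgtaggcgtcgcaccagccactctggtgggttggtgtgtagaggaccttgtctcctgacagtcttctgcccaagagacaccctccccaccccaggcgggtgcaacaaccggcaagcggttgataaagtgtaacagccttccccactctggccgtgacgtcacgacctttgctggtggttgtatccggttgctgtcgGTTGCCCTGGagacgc
Zp3r: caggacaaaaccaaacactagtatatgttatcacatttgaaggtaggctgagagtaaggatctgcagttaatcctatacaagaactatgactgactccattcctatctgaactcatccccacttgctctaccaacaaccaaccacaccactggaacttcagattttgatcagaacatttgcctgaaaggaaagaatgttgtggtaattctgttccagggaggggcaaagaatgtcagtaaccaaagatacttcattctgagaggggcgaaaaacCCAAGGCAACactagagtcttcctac

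Markers of tissues that lie against the testis were followed as well. Of 8 epididymis genes, 6 did not pass the filter, among them Lcn5, Lcn8 and Crisp1, and Rnase10, the gene of the list that was called [none with fresh replicate 1 added], had 17.7 and 13.1 normalised CPM at 36.5 dpp and at most 3 counts in each 6.5 dpp library. Of 6 adipocyte genes, 4 passed the filter and 3 rose [none fell and 2 rose with fresh replicate 1 added, and none fell and 2 rose without CSF replicate 3]. Adipoq, the adipokine gene, stood at 33.8 and 21.4 normalised CPM at 36.5 dpp and 0.0934, 0.0552, 0.0652 and 0.0707 at 6.5 dpp (8.54 ± 0.67), whereas Plin1, which coats the lipid droplet, was at 9.89 and 9.14 at 36.5 dpp and 23.9, 22.2, 25.7 and 21.5 at 6.5 dpp (-1.29), and Cfd and Cidec did not pass the filter. Summed, the adipocyte genes held 33.2 to 47.0 normalised CPM at 36.5 dpp and 22.4 to 26.1 at 6.5 dpp. Of 7 genes of mesothelium and rete testis, 2 fell and 1 rose [2 fell and none rose with fresh replicate 1 added]. Pax8 had at most 3 counts in each 36.5 dpp library against 2.02, 3, 1.89 and 2.83 normalised CPM at 6.5 dpp, Krt18 fell (-4.53), and Lrrn4 rose from 0.822, 0.295, 0.239 and 0.0707 to 3.82 and 4.39 (3.44 ± 0.45, and -0.0144 with fresh replicate 1 added). The part of these tissues in the results above was not tested.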

How the data were processed

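RNA of whole or fragmented testes was sequenced from polyadenylated, strand-marked TruSeq libraries as single-end reads of 50 bases. The design text of the series gives 6 fragments for each of 3 replicates per condition. According to the submitters' processing notes, bases were called with bcl2fastq 2.17.1.14, reads were aligned to GRCm38 (mm10) with STAR 2.7.3a and counted per gene with HTSeq 0.12.4, and the authors' tests used DESeq2. The strand setting of the counting and the annotation release are not given in the sources used here, so overlapping and antisense genes are uncertain. The authors deposited raw counts for 27466 genes in 23 libraries. Of these genes, 27373 were matched by Entrez identifier to a symbol and position, and the rest held 0.0207% of the counts.

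Groups came from the sample labels. The main test was edgeR 4.0.16 (R 4.3.3), glmQLFit and glmQLFTest, with TMM factors and filterByExpr, in 1 fit of 21 libraries in 7 groups, because 36.5 dpp has only 2 libraries. The 2 libraries labelled as fresh 6.5 dpp replicates 2 and 3 were identical and counted once. Adjusted p-values are Benjamini-Hochberg values over the 19255 genes tested, and a call needed a 4-fold difference (2 on the log2 scale) together with an adjusted p no higher than 0.001. SE values were the log2 fold change divided by the square root of F. Normalised CPM are counts divided by the library total and its TMM factor. They are not per length, so ranks by level and ratios of counts between genes also carry gene length. A gene with at most 3 counts in every library of a group was given no fold, and this floor covers counting error alone. Shares of counts were compared by exact permutation tests over the libraries (scipy 1.17.1). The test was checked on simulated data with known changes.

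The libraries compared, the gene lists and the alternatives were chosen with earlier results of these data known. Genes were named from the lists (at least the largest and smallest change of each) and from the study's own marker genes. Others came from the 10 largest changes in each direction, with at least 10 CPM before TMM scaling and no overlap. The 10 most abundant genes at each age, ranked on the same scale, were named too. Spag6l was named outside these rules, as a promoter example. Alternatives were RLE factors, library size alone, no filter, a filter at 1 CPM, DESeq2 1.42.0, other sets of libraries, a replicate block, each library left out, and a 2-fold threshold. Counts over each list with library size alone, with fresh replicate 1 or without CSF replicate 3, and promoters of protein-coding genes alone, were added after seeing the data. The promoter windows hold 250 bases before and 50 after the RefSeq start (GRCm38.p6), and a motif match describes letters only. A few genes of the lists are not reported here.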

Additional observations from a re-analysis of the deposited data

Results flagged for a closer look

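Among the 4 libraries at 6.5 dpp, 32 of 264 values examined had a library whose gap to the nearest other exceeded Dixon's 95% critical share of the range, where chance flags about 1 in 20 groups. The library was CSF replicate 3 in 27 of them, fresh replicate 2 in 3 and CSF replicate 1 in 2. Values are normalised CPM of that library against the lowest and highest of the other 3.

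CSF replicate 3 was low in genes of the basement membrane and matrix, Col4a2 (186 against 671 to 690.0), Lamb1 (240.0 against 521 to 542), Lamc1 (79.8 against 268 to 282), Lama2 (154 against 344 to 369), Fn1 (187 against 520.0 to 535) and Col6a1 (357 against 610.0 to 645). It was also low in the hedgehog receptor gene Ptch1 (80.5 against 259 to 269), in Gata4 (194 against 346 to 354), Tjp1 (86.5 against 229 to 249) and Stra6 (51.5 against 83.1 to 88.9), and in the spermatogonial regulator and the topoisomerase of dividing cells, Zbtb16 (31.7 against 87.3 to 97.2) and Top2a (242 against 432 to 460.0). The genes called lower at 36.5 dpp held 19.2% of its counts, against 22.4% to 22.9% in the others.

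The same library was high in the globin gene Hbb-bt (65 against 10.1 to 11.5), in the cell division genes Birc5 (116 against 46.3 to 55.4) and Rrm2 (123 against 49.7 to 58.5), in Fdx1 (102 against 34.2 to 35.9), Crabp1 (129 against 47.7 to 59.2), Vsnl1 (2.72 against 1.29 to 1.46), Tsx (3.61 against 1.3 to 1.53) and Utp14a (45.7 against 33.2 to 34.8), and in the germ cell genes Nanos2 (2.76 against 1.42 to 1.57), Tex11 (171 against 102 to 112), Tbpl1 (118 against 48.9 to 60.5), Spata16 (0.495 against 0.0869 to 0.147), H1f6 (0.707 against 0.0869 to 0.131) and Tnp1 (2.69 against 0.534 to 0.891). Fresh replicate 2 was high in spermatid genes at low levels, Prm2 (1.74 against 0.0354 to 0.258), Tnp2 (0.785 against 0.0652 to 0.177) and Smcp (0.262 against 0 to 0.0368). CSF replicate 1 was low in Fdxr (119 against 141 to 146) and in the share of counts on the mitochondrial genome, at 1.26% against 1.6% to 1.66%. The cause of these differences was not tested.

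Outside the libraries compared, fresh replicate 1 of 6.5 dpp held a summed level of 3902 normalised CPM of the spermatocyte and spermatid regulators, above the 177 to 284 of the other 6.5 dpp libraries. Its correlation with them, 0.823 to 0.865 across genes, was below that among them.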

How the results depend on the processing

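Of the 7857 calls, none was called in the other direction under any alternative that was run. That would need a 4-fold difference to become 4-fold the other way, so it says little about how stable the calls are. Many calls were lost: with the 6 libraries alone, 1543 of the 2842 falls were kept. With library size as the only scale, 5086 genes were lower in place of 2842, and RLE factors and DESeq2 placed all values above the TMM scale by a median of 0.228 on the log2 scale, with 5313 higher and 2324 lower (RLE) and 5289 and 2365 (DESeq2). Fitted on the 6 libraries alone, 1545 genes were lower, and with fresh replicate 1 added 3044 were higher. At 2-fold and an adjusted p under 0.05 (edgeR), 12988 genes were called, 6169 of them lower. Leaving out each library in turn gave 7182 to 7973 calls, 4704 to 5097 higher and 2361 to 2876 lower. The replicate numbers of the labels were not shown to pair the libraries: the deviations of same-numbered libraries correlated at -0.677, 0.558 and 0.202. With the number as a replicate block in the model, 7635 genes were called, 4901 higher and 2734 lower, and the somatic median was -1.85.

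The median over the somatic lists (-1.89) was -1.66 with RLE factors or DESeq2, -2.63 with the library size alone, and -1.89 to -1.73 when each library was left out. The Leydig minus Sertoli difference (2.78) kept its sign in every alternative, at 2.67 to 3.07 without a library. The 10 genes with the most counts in a library held 1.29 percentage points more counts at 36.5 dpp (0.984 to 1.6 without a library), and the first 100 held 3.98 points more.

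Named values that changed sign came from genes not called, but for Lrrn4 (3.44) with fresh replicate 1 added, and the cause was not tested. With RLE factors, values became 0.21 for Crhr1, 0.11 for Cstf2, 0.082 for H2-Eb1, 0.048 for Pcna and 0.15 for Prdm9. With DESeq2, values became 0.22 for Crhr1, 0.11 for Cstf2, 0.081 for H2-Eb1, 0.047 for Pcna and 0.15 for Prdm9. With a fit of the 6 libraries alone, values became 0.083 for Crhr1, 0.028 for Prdm9 and 0.80 for the median of the erythroid list. With a fit of the in vivo libraries, values became 0.071 for Crhr1, 0.022 for Prdm9 and 0.81 for the median of the erythroid list. With the library size alone, values became -0.34 for Adgre1, -0.56 for Aldh1a1, -0.24 for Birc5, -0.60 for Cdkn1c, -0.15 for Eef2, -0.29 for Espn, -0.57 for Flt1, -0.67 for Hsd3b1, -0.24 for Mcm7, -0.45 for Postn, -0.66 for Scarb1 and -0.27 for the median of the Leydig androgen synthesis list. With fresh replicate 1 added, values became 0.072 for Crhr1, 0.00743 for Cstf2, -0.21 for Espn, -0.15 for Flt1, 0.042 for H2-Eb1, -0.0144 for Lrrn4, 0.00678 for Pcna and -0.71 for Tnc. With fresh replicate 2 as the only 6.5 dpp library, values became -0.18 for Adgre1, -0.042 for Flt1, 0.13 for Hsd17b3, 0.68 for Pcna, -0.049 for Postn, -0.14 for Scarb1 and 0.25 for the median of the mesothelium and rete list. With the CSF libraries alone, values became 0.025 for Crhr1 and 0.28 for H2-Eb1. When each library was left out, log2 fold changes that crossed 0 were those of Aldh1a1 from -0.35 to 0.57, Ccnb1 from -1.01 to 0.26, Cd68 from -0.75 to 0.0101, Cdkn1c from -0.24 to 0.46, Crhr1 from -0.42 to 0.33, Cstf2 from -0.23 to 0.039, Espn from -0.00878 to 0.87, H2-Eb1 from -0.39 to 0.28, Hsd3b1 from -0.20 to 0.31, Pcna from -0.64 to 0.37, Prdm9 from -0.29 to 0.14 and the median of the erythroid list from -1.46 to 0.81.

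With 2 libraries at 36.5 dpp, the spread within that group is estimated largely from the other groups of the fit, and a single permutation comparison of 2 against 4 libraries cannot go below p = 0.133. Depth was 28351546 to 48084120 counts, and genes with at most 3 counts in every library of a group were given no fold.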
